A study of Mus musculus with 6 samples.

Results

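The genes described here are 33 genes of cytosolic nucleic acid sensing, the interferon response and antigen presentation, out of 36528 NCBI gene identifiers counted in lumbar dorsal root ganglia of mice. They were taken by NCBI gene identifier from a named list, with Sting1 also known as Tmem173 and Cgas as Mb21d1, and all 33 had a row in every library. The mice were females of 12 to 18 weeks, homozygous for a loxP-flanked Scn9a gene (Scn9a loxP/loxP), which encodes the sodium channel Nav1.7. Control mice (n = 3) were negative for pCAAG.Cre.ER, an inducible Cre recombinase fused to an oestrogen receptor domain. CreER-positive mice (n = 3) carried it, and the series title calls them global knockouts. Every animal of both groups carried the floxed alleles, so the groups differ by the transgene as well as by any deletion it made, and the effects of these cannot be told apart. No dose or time of an inducing drug was given in the sources used here. Each library came from the 6 ganglia at L4, L5 and L6 of 1 mouse. The design compares knockout with control ganglia, read here for the genes of this pathway.

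In this pathway the enzyme cGAS binds DNA in the cytosol and makes the cyclic dinucleotide cGAMP, which activates the membrane protein STING, the product of Sting1. STING recruits the kinase TBK1, which phosphorylates the transcription factor IRF3 and so switches on type I interferon genes. Secreted interferon binds the receptor IFNAR1 and IFNAR2 on the same or other cells, and a complex that contains STAT2 and IRF9 then binds interferon-stimulated response elements in the promoters of antiviral and antigen presentation genes. In sensory ganglia STING has been described in nociceptive neurons as well as in immune and endothelial cells, and STING and type I interferon signalling have been linked to the control of nociceptor excitability.

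The response element has a core of 2 copies of GAAA separated by any 2 bases, which reads as 2 copies of TTTC on the other strand. This core was searched on both strands of the 250 bases before each gene start, in promoter windows from RefSeq (GRCm38.p6). Overlapping matches were counted separately. Of the 33 genes, 27 had a window, and 11 of the 27 (40.7%) held the core, against 936 of 27025 genes with a window (3.46%). Among interferon-induced members it was 9 of 12, and none of the 3 sensing genes or of the kinase and factor genes with a window held it. Of the other interferon-stimulated genes listed for comparison, 14 of 42 held it (33.3%). The 7 stretches that lay outside annotated exons and outside the gene's own span are printed below 5′ to 3′ on the strand of the gene, to show the element in 5 interferon-induced genes, in the transducer gene Stat2 and in the antigen presentation gene B2m, with the core in capitals. Positions are relative to the gene start. Rsad2 (chr12:26456548-26456587, minus strand) has the core at -120 to -111. Ifit1 (chr19:34640770-34640828, plus strand) has copies from -104 to -76, Isg15 (chr4:156200860-156200911, minus strand) overlapping copies from -78 to -57 and Bst2 (chr8:71537572-71537617, minus strand) overlapping copies from -130 to -115. Stat2 (chr10:128270261-128270300, plus strand), B2m (chr2:122147533-122147572, plus strand) and Cxcl10 (chr5:92349078-92349117, minus strand) have it at -222 to -213, -139 to -130 and -213 to -204.
Rsad2: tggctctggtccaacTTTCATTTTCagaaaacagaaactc
Ifit1: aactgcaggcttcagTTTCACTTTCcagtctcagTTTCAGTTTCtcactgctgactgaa
Stat2: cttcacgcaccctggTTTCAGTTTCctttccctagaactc
B2m: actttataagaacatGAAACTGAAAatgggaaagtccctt
Isg15: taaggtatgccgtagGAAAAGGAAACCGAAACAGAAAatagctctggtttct
Bst2: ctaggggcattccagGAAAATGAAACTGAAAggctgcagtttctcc
Cxcl10: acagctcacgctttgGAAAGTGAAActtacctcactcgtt
A match to these letters is a description of the sequence and does not show that a factor binds there. Oas1a, Ifit3, Gbp2 and Gbp3 also hold the core, in stretches not printed. Those of Gbp2 and Gbp3 overlap an annotated exon. Those of Oas1a and Gbp3 overlap the gene's own span, and that of Ifit3 lies within it, before a later start. Sting1, Usp18, Ifi27l2a, Mx1, Mx2 and Rtp4 had no window.

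Total counts ranged from 40237131 (control replicate 1) to 63332040 (control replicate 3), and all 33 genes passed the filter on low counts. Scn9a had 557 to 635 CPM (counts scaled to library size) in controls and 565 to 620 CPM in CreER-positive mice, a log2 fold change of -0.04 (95% interval -0.21 to 0.14, edgeR adjusted p 0.918). This gene-level count includes reads outside any deleted exons, so it does not check the genotype labels. CreER-positive replicate 3 stood apart with the highest level of 5 of 5 red blood cell markers (82.5 CPM in sum, against 32.4 to 42.9 CPM elsewhere), 12 of 14 macrophage, 8 of 8 endothelial and 6 of 6 fibroblast markers, and control replicate 2 with skeletal muscle markers (48.6 CPM in sum, against 5.52 to 8.32 CPM elsewhere).

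Sting1 was higher in CreER-positive ganglia and was the 1 member of 33 that changed by the quasi-likelihood test of edgeR (Benjamini-Hochberg adjusted p over 22043 genes). Of all genes tested 0.726% were called, 0.163% as higher and 0.563% as lower. Sting1 (NCBI gene 72512, chromosome 18, 35733678 to 35740554 in GRCm38.p6) had 4.97, 5.61 and 5.50 CPM in control replicates 1 to 3. In CreER-positive replicates 1 to 3 it had 7.67, 9.46 and 9.0 CPM. Every CreER-positive mouse lay above every control, as for 6.63% of all genes tested. The means were 5.36 ± 0.345 and 8.71 ± 0.928 CPM (SD, n = 3), a 1.62-fold difference. On the log2 scale the difference was 0.70 ± 0.10 (SE), with a 95% interval from 0.46 to 0.93 and an edgeR adjusted p of 0.0184. The raw counts behind these values were 202, 311 and 348 in controls and 460, 581 and 479 in CreER-positive mice. No other annotated gene overlaps Sting1 in GRCm38.p6. The call held with DESeq2-style size factors, total counts, either other filter, DESeq2 and limma-voom.

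The estimate for Sting1 stayed between 0.63 and 0.78 when any 1 library was left out, but the call did not hold in each of these smaller fits. The edgeR adjusted p was 0.104, 0.0882 and 0.0879 without control replicate 1, 2 or 3 and 0.0560 without CreER-positive replicate 2. It was 0.0133 without CreER-positive replicate 1 and 0.0216 without replicate 3. Leaving out a control library also lowered the number of called genes over the whole table, from 160 to between 60 and 73. That number was 139, 143 and 568 without CreER-positive replicate 1, 2 or 3. Why the Sting1 call was lost in some of these fits was not tested. In these bulk libraries a larger share of Sting1-expressing cells and more Sting1 RNA per cell cannot be told apart. Summed macrophage markers were 97.1 to 126 CPM in controls and 101 to 181 CPM in CreER-positive mice, and summed endothelial markers 123 to 139 and 117 to 187 CPM. No marker of either list was at 0 in any library. CreER-positive replicate 1, with 7.67 CPM of Sting1, had 105 CPM of macrophage and 117 CPM of endothelial markers. Summed markers of sensory neurons were 9465, 9321 and 10674 CPM in control replicates 1 to 3 and 11148, 11999 and 9191 CPM in CreER-positive replicates 1 to 3. CreER-positive replicates 1 and 2 thus lay above every control in this sum, and replicate 3 lay below every control. Single neuron markers did not all follow the sum. CreER-positive replicate 2 was highest for 8 of 10 and replicate 3 lowest for 5 of 10, and Isl1 was lower in every CreER-positive mouse than in any control. Summed satellite glia markers were 1865 to 2008 CPM in controls and 1972 to 2545 CPM in CreER-positive mice. Summed Schwann cell markers were 3112 to 3471 and 3119 to 3859 CPM, highest in CreER-positive replicate 2. The groups did not overlap for 1 of 6 satellite glia markers (Kcnj10, higher), against 15.9% of all genes tested, and for 0 of 6 Schwann cell markers. Without CreER-positive replicate 3, the library highest in summed macrophage and endothelial markers and lowest in summed neuron markers, the log2 fold change of Sting1 was 0.67. The part of these cells in the level of Sting1 was not tested.

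**Figure D1:**
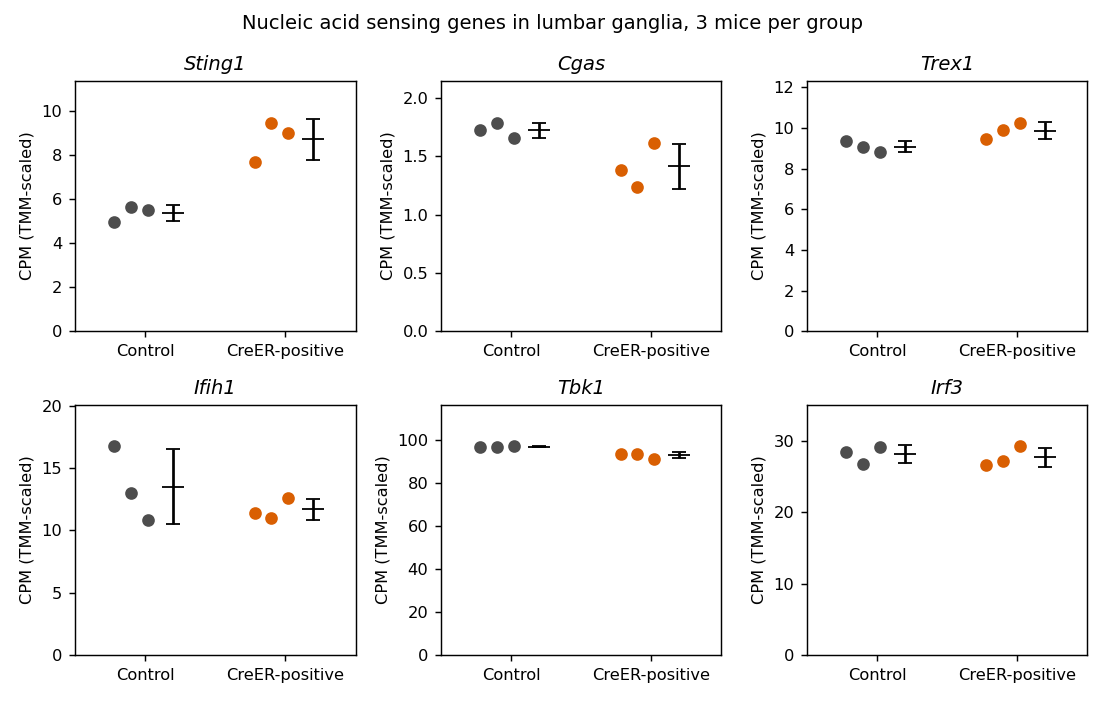
TMM-scaled CPM (y axis, from 0) of 6 sensing and signalling genes in each mouse, as points by group, with the mean and SD of 3 mice as a bar beside them. Sting1 is higher in every CreER-positive mouse (7.67 to 9.46 CPM) than in any control (4.97 to 5.61 CPM).

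The other sensing genes, and the kinase and factor genes that act after STING, were not called. Cgas, which encodes the DNA sensor upstream of STING, had 1.72, 1.79 and 1.66 CPM in controls and 1.38, 1.24 and 1.62 CPM in CreER-positive mice. Its groups did not overlap, yet the log2 fold change of -0.29 ± 0.15 (95% interval -0.64 to 0.05) had an edgeR adjusted p of 0.567, on 70 to 105 counts a library. Trex1, the DNase that removes cytosolic DNA, had 8.83 to 9.35 CPM and 9.44 to 10.3 CPM, with a log2 fold change of 0.12 (-0.05 to 0.29). Trex1 overlaps the read-through gene Atrip-trex1, and reads there cannot be assigned to 1 of them. Ifih1, the gene of the RNA sensor MDA5, had 10.8 to 16.8 CPM in controls and 11 to 12.6 CPM in CreER-positive mice, with control replicate 1 the highest of all libraries (log2 fold change -0.20, interval -0.52 to 0.11).

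Tbk1, the kinase gene, and Irf3, the factor that TBK1 activates, differed little between the groups. Tbk1 had 96.5 to 97.0 CPM in controls and 91.2 to 93.6 CPM in CreER-positive mice, groups that did not overlap but differed by a log2 fold change of -0.06 (95% interval -0.16 to 0.04). Irf3 had 26.8 to 29.2 and 26.6 to 29.2 CPM, a log2 fold change of -0.02 (-0.16 to 0.11). For these genes the intervals exclude a change of the size of Sting1.

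Of 26 other sensors, adaptors and kinases, listed with earlier results of these data known, 26 were tested and edgeR called none in either direction. In that list 1 gene reached an unadjusted edgeR p below 0.05, against 10.6% of all genes tested, and DESeq2 called none. The list had 11 positive and 15 negative estimates and a median log2 fold change of -0.02, against 0.00 over all genes tested. The smallest p values were those of Slc19a1, a folate carrier that also imports cyclic dinucleotides in human cells (0.22 ± 0.07, adjusted p 0.243), and Ticam1, the adaptor gene of the receptor TLR3 (0.21 ± 0.10, adjusted p 0.523). The RNA sensor gene Rigi (-0.02) and its adaptor gene Mavs (-0.00469) had 95% intervals of -0.23 to 0.20 and -0.18 to 0.17.

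Transcripts of the interferons themselves were almost undetected. Of 8 interferon genes, Ifnb1, Ifna2, Ifna4, Ifne, Ifnl2 and Ifnl3 had 0 counts in all 6 libraries, and Ifnk and Ifng had at most 3 counts in a library. None of the 8 passed the filter on low counts, so no comparison was made for them. A count of 0 allows up to 3 counts in a library, by counting error alone.

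Ifnar1, 1 of the 2 subunits of the type I interferon receptor, was slightly lower in all CreER-positive mice without passing the test. It had 108, 107 and 106 CPM in controls and 95.4, 96.2 and 97.5 CPM in CreER-positive mice. The groups did not overlap. The log2 fold change was -0.16 ± 0.05 (95% interval -0.26 to -0.05), with an unadjusted p of 0.00846 and an edgeR adjusted p of 0.243, and it stayed between -0.16 and -0.14 without any 1 library. Ifnar2, the other subunit, had 27.9 to 29.4 and 25.9 to 31.3 CPM (-0.02). Stat2 had 68.3 to 83.5 CPM in controls and 75.2 to 85.1 CPM in CreER-positive mice, and Irf9 23.7 to 29.5 and 24.8 to 28.0 CPM. These transducer genes had log2 fold changes of 0.10 (95% interval -0.08 to 0.28) and -0.01 (-0.21 to 0.19). Irf7, an interferon-induced factor that amplifies the response, ranged from 3.97 to 8.71 CPM among the controls alone and from 4.20 to 6.79 CPM in CreER-positive mice (-0.20, interval -0.79 to 0.39).

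Of 15 other receptor and transducer genes edgeR called none. An unadjusted edgeR p below 0.05 was reached by 2, against 10.6% of all genes tested. Their median log2 fold change was -0.07, with 5 positive and 10 negative estimates. Irf5, a factor of macrophage and dendritic cell responses, had the smallest p. It had 7.80, 7.01 and 6.69 CPM in controls and 4.75, 3.69 and 5.41 CPM in CreER-positive mice, without overlap (-0.63 ± 0.14, edgeR adjusted p 0.0983). DESeq2, which called 1.95% of all genes, called Irf5 (adjusted p 0.00286). Without CreER-positive replicate 3, where edgeR called 2.53% of genes, Irf5 passed the threshold. It was the 1 gene of the other pathway lists for which leaving out a library did so. Socs1, a feedback inhibitor of the receptor kinases, had 0.62 ± 0.22 (adjusted p 0.348) at 1.12 to 2.42 CPM.

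In the interferon-induced genes single mice stood out. The groups did not overlap for 2 of 17 members, against 15.9% of all genes tested, a share near that background. Of the 17 members of this kind edgeR called none, and 1, Rsad2, reached an unadjusted p below 0.05, as did 10.6% of all genes tested. Of the 17, 3 had a positive estimate and 14 a negative one, with a median log2 fold change of -0.21, against 50.8% positive and a median of 0.00 over all genes tested. Control replicate 1 had the highest level of 14 of the 17 genes, and CreER-positive replicate 1 the lowest of 9. The mean deviation of the 17 from the control mean was 0.43 on the log2 scale in control replicate 1 and -0.13 and -0.30 in control replicates 2 and 3. It was -0.45, -0.25 and 0.12 in CreER-positive replicates 1 to 3. Without control replicate 1 the median was 0.04, with 11 of 17 estimates positive. Without CreER-positive replicate 3 it was -0.37.

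Control replicate 1 was the library of lowest depth. Its summed macrophage markers, 126 CPM, were the highest of the controls, and its summed lymphocyte and plasmacytoid dendritic cell markers were 5.17 CPM, against 4.13 to 8.52 CPM in controls and 3.92 to 5.79 CPM in CreER-positive mice. Of those markers Cd8b1 was at 0 in 1 library. Neutrophil markers summed to 23.3 CPM there, against 18.0 to 23.6 CPM in controls and 17.6 to 21.3 CPM in CreER-positive mice. The part of these cells in the level of interferon-induced genes was not tested.

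**Figure D2:**
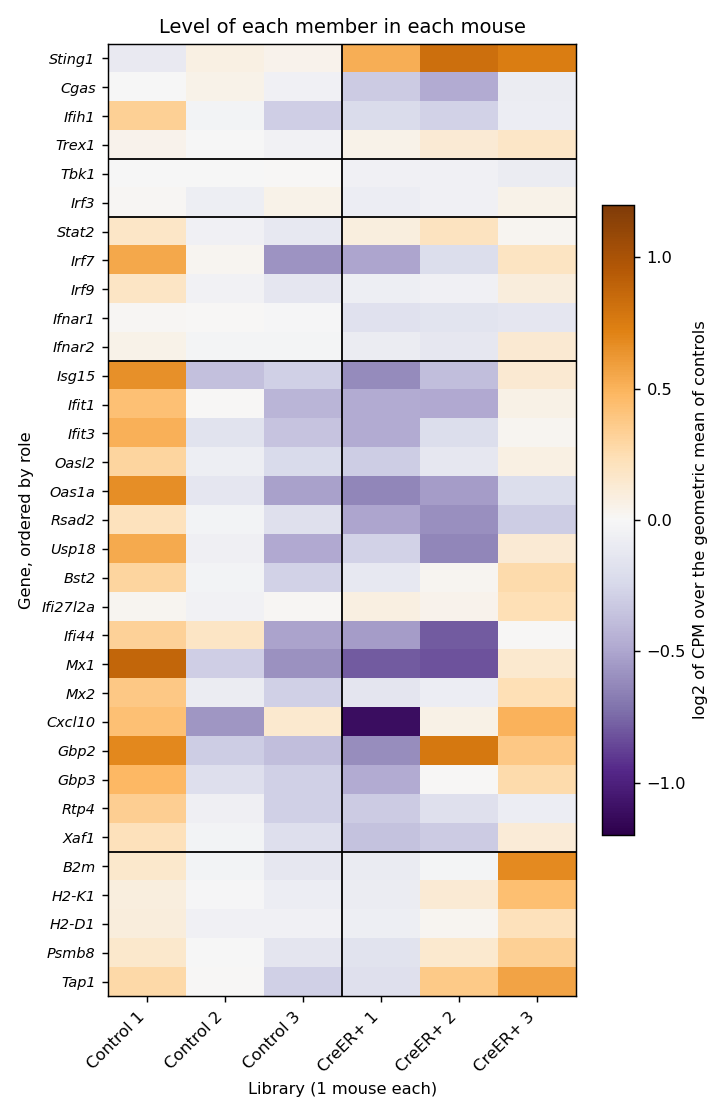
Colour shows the log2 ratio of a gene's CPM to the geometric mean of the 3 controls, for each of 33 genes (rows, by role, divided by lines) in each of 6 mice (columns). Control replicate 1 is highest in 14 of 17 interferon-induced genes, CreER-positive replicate 3 in all 5 antigen presentation genes, and Sting1 is high in the 3 CreER-positive mice alone.

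Rsad2, which encodes the antiviral enzyme viperin, had the smallest p of the interferon-induced members. It had 16.5, 13.8 and 12.5 CPM in controls and 10.04, 9.39 and 11.4 CPM in CreER-positive mice, with no overlap. The means were 14.3 ± 2.0 and 10.3 ± 1.05 CPM (SD, n = 3). On the log2 scale it differed by -0.47 ± 0.11 (95% interval -0.72 to -0.21), with an edgeR adjusted p of 0.139. DESeq2, which called 1.95% of all genes, called it (adjusted p 0.0108). Limma-voom, which called 0.721%, did not (0.163). Without CreER-positive replicate 3, where edgeR called 2.53% of genes, it passed (0.0404). Its estimate stayed negative in all 14 alternatives, from -0.57 to -0.36.

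Oas1a, the gene of a sensor of double-stranded RNA, had 4.77, 2.74 and 2.10 CPM in controls and 1.95, 2.08 and 2.63 CPM in CreER-positive mice. The groups overlapped, and the log2 fold change had an edgeR adjusted p of 0.591. Its estimate was -0.13 without control replicate 1. Ifi27l2a, an interferon-inducible gene, had 192, 183 and 190 CPM in controls and 200, 194 and 222 CPM in CreER-positive mice. The groups did not overlap, and the log2 fold change was 0.12 (95% interval -0.02 to 0.27, edgeR adjusted p 0.569). Ifi27l2a overlaps Ifi27, whose values were nearly the same (178 ± 4.61 and 195 ± 12.0 CPM), and reads there cannot be assigned to 1 of them.

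The classical antiviral genes followed control replicate 1. Isg15, a ubiquitin-like modifier gene, had 7.85 CPM there and 3.27 to 5.51 CPM in the other libraries. Ifit1, which binds foreign RNA caps, had 50.7 CPM there against 27.1 to 39.4 CPM elsewhere. Mx1, a dynamin-like GTPase gene, had 5.86 CPM there against 1.81 to 3.52 CPM elsewhere. Usp18, the gene of the protease that removes ISG15, had 13.6 CPM there against 6.05 to 10.2 CPM elsewhere. Ifit3, a partner of IFIT1, had 32.3 CPM there against 16.3 to 22.99 CPM elsewhere. Oasl2, an OAS family gene, had 48.2 CPM there against 31.6 to 41.0 CPM elsewhere. Xaf1, a gene linked to cell death, had 43.7 CPM there against 29.1 to 40.6 CPM elsewhere. In all of these genes 1 control mouse lay above the other 5 animals.

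A further 5 interferon-induced members also had their highest level in control replicate 1. Ifi44 had 6.40 CPM in control replicate 1 against 2.96 to 5.83 CPM elsewhere, and Mx2, a GTPase gene related to Mx1, 10.4 against 6.58 to 9.47 CPM. Rtp4, a receptor transporter gene, had 12.6 against 7.97 to 9.53 CPM. Gbp3, a guanylate-binding protein gene, had 34.7 against 18.0 to 30.0 CPM, and Bst2, which encodes the virus-tethering protein tetherin, 15.1 against 10.1 to 14.7 CPM. Log2 fold changes of these 5 genes ranged from -0.44 (Ifi44) to 0.06 (Bst2). The estimates of Isg15, Ifit3, Oasl2, Usp18 and Mx1, all negative with 6 libraries, were positive without control replicate 1 (0.07, 0.05, 0.04, 0.03 and 0.0083).

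The guanylate-binding protein gene Gbp2 and the chemokine gene Cxcl10 spread widely among the CreER-positive mice. Gbp2 had 32.1, 16.1 and 15.3 CPM in controls and 13.1, 34.1 and 25.9 CPM in CreER-positive mice (0.21, 95% interval -0.58 to 1.0). Cxcl10 had 4.21, 2.11 and 3.48 CPM and 1.45, 3.27 and 4.45 CPM (-0.09, interval -0.90 to 0.72). Both intervals include a rise as large as that of Sting1.

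Of 56 other interferon-stimulated genes tested, neither edgeR nor DESeq2 called any. An unadjusted edgeR p below 0.05 was reached by 4 of the 56, 2 as higher and 2 as lower, against 10.6% of all genes tested. Their median log2 fold change was -0.06, with 22 positive and 34 negative estimates. This direction depended on single mice, and control replicate 1 was the highest library for 29 of the 56. The median was 0.09 with 40 positive estimates without control replicate 1, and 0.09 with 33 without CreER-positive replicate 1. It was -0.15 with 14 positive estimates without CreER-positive replicate 3. Lgals3bp, a secreted galectin-binding protein gene, had a log2 fold change of 0.18 ± 0.06 (SE, edgeR adjusted p 0.293). Cmpk2, a mitochondrial nucleotide kinase gene beside Rsad2, had -0.16 ± 0.07 (SE, edgeR adjusted p 0.451) and groups that did not overlap.

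Among the 11 members with the response element core before a start, control replicate 1 was highest in 7 and CreER-positive replicate 1 lowest in 6. For Ifit3 that start lies inside the gene's span. Among the 16 with a window but no core, control replicate 1 and CreER-positive replicate 3 were each highest in 7. The mean deviation of the 11 was 0.43 in control replicate 1 and -0.45 in CreER-positive replicate 1, and that of the 16 was 0.17 and -0.20. Interferon-induced members make up 9 of the 11, so this split largely repeats the split by role, and the 2 cannot be told apart. Of the members without a window, Usp18, Mx1, Mx2 and Rtp4 were also highest in control replicate 1, and Sting1 and Ifi27l2a were not. A part of the core in these levels was not tested.

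**Figure D3:**
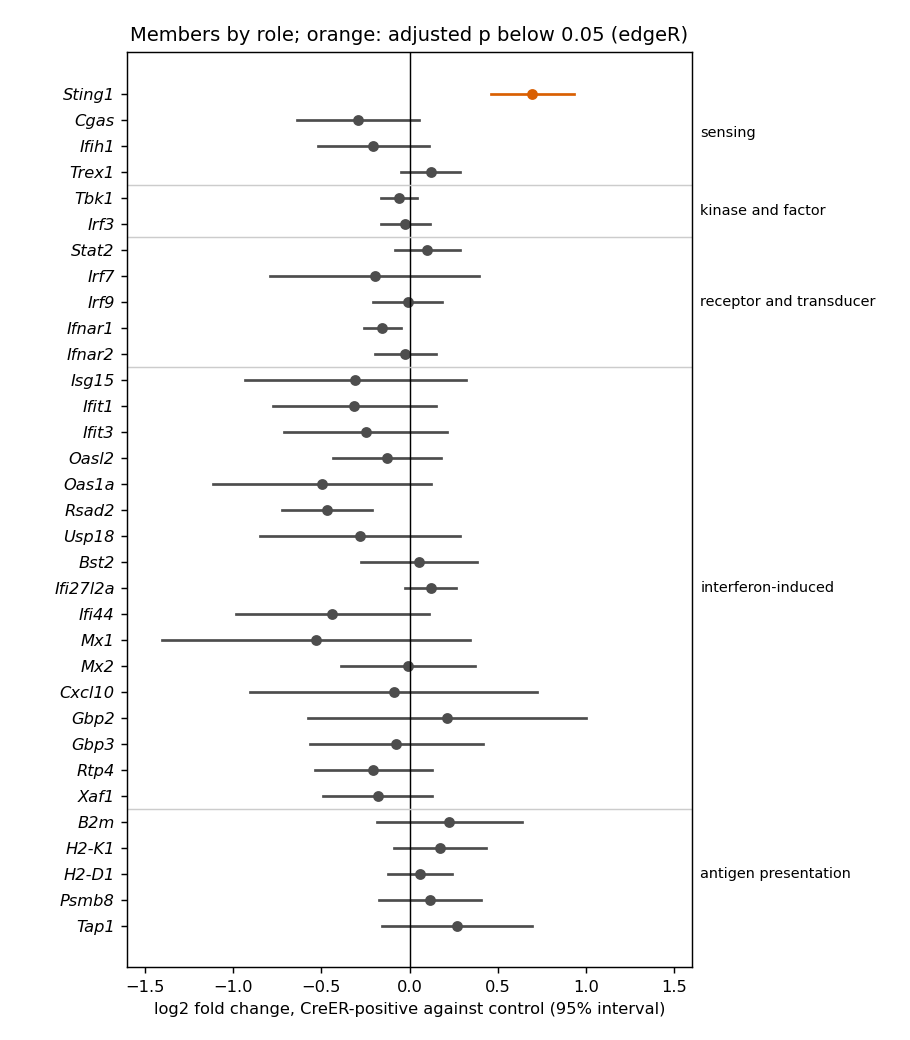
Points are log2 fold changes of CreER-positive against control mice for 33 genes by role, lines are 95% intervals from edgeR, and orange marks an adjusted p below 0.05. Only Sting1 (0.46 to 0.93) is called, and 30 of the 33 intervals span 0.

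All 5 antigen presentation members had a positive estimate, neither edgeR nor DESeq2 called any, and none reached an unadjusted p below 0.05. These genes encode the chains of MHC class I (H2-K1, H2-D1 and the shared light chain B2m), an immunoproteasome subunit (Psmb8) and the peptide transporter (Tap1). B2m had 285, 251 and 235 CPM in controls and 239, 252 and 411 CPM in CreER-positive mice (0.23, 95% interval -0.18 to 0.64). Tap1 had 12.1, 10.02 and 8.19 CPM and 8.80, 12.9 and 14.7 CPM (0.27, interval -0.16 to 0.70). H2-K1 had 63.8 to 71.8 and 63.1 to 91.2 CPM (0.17), H2-D1 121 to 135 and 120 to 146 CPM (0.06), and Psmb8 10.2 to 12.6 and 10.1 to 14.3 CPM (0.12). CreER-positive replicate 3 was the highest library for all 5 genes. H2-K1 and H2-D1 are close copies of each other, so how their reads were divided is uncertain.

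The median of the 5 genes was 0.17 with all libraries and -0.0038 without CreER-positive replicate 3, where 2 of 5 estimates stayed positive. That library also had the highest summed level of red blood cell (82.5 CPM), macrophage (181 CPM), endothelial (187 CPM) and fibroblast markers (1583 CPM, against 896 to 1170 CPM in controls). The same held for summed satellite glia markers (2545 CPM, against 1865 to 2008 CPM in controls). The part of these cells in the antigen presentation values was not tested. Of 20 other antigen presentation genes edgeR called none. An unadjusted edgeR p below 0.05 was reached by 2, near the 10.6% of all genes tested. Of the 20, 15 estimates were positive (median 0.04), against 50.8% of all genes tested. CreER-positive replicate 3 was the highest library for 13 of the 20, and without it 7 estimates were positive (median -0.07). Without control replicate 3, 10 were positive (median -0.0020), and without CreER-positive replicate 1, 18 (median 0.14). With total counts alone 11 were positive (median 0.02), against 44.4% of all genes tested in that fit. The chaperone genes Calr (calreticulin, 168 ± 9.51 to 195 ± 1.74 CPM, 0.21 ± 0.06, edgeR adjusted p 0.195) and Tapbp (tapasin, 0.16 ± 0.06, 0.345) had the smallest p. DESeq2, which called 1.95% of all genes, called Calr (adjusted p 0.0419).

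**Figure D4:**
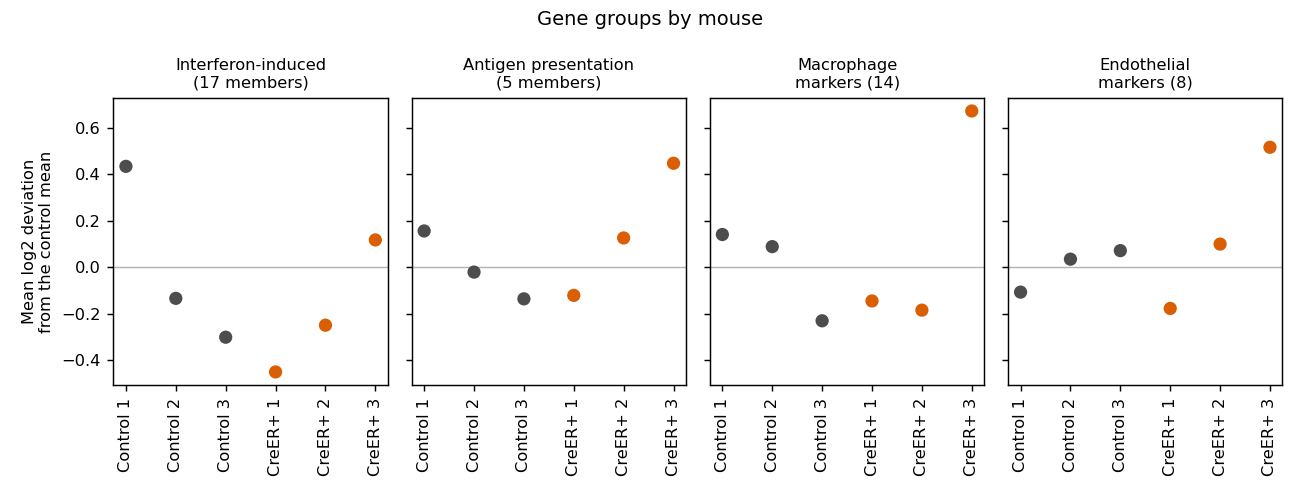
Mean log2 deviation from the control mean (y axis) of 4 gene groups in each mouse (x axis), grey for control and orange for CreER-positive. Interferon-induced members peak in control replicate 1 (0.43), whereas antigen presentation members (0.45), macrophage markers (0.67) and endothelial markers (0.52) peak in CreER-positive replicate 3.

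Over the whole set, 7 of 33 genes had groups that did not overlap, 3 higher (Sting1, Trex1 and Ifi27l2a) and 4 lower (Cgas, Tbk1, Rsad2 and Ifnar1) in CreER-positive mice. Of all genes tested, 15.9% did not overlap, 6.63% as higher and 9.31% as lower. The 33 genes had 11 positive estimates and a median log2 fold change of -0.07, which became 0.07 without control replicate 1. Per gene length, the authors' RPKM (reads scaled to gene width and library size) was highest for B2m at 48.8 ± 4.99 in controls (SD, n = 3), followed by H2-D1 at 29.4 ± 1.89, Ifi27l2a at 19.7 ± 0.433 and H2-K1 at 15.9 ± 1.02. On the same RPKM scale Irf3 had 5.54 ± 0.209, Tbk1 2.45 ± 0.0114, Sting1 0.798 ± 0.0514 and Cgas 0.136 ± 0.00589, the lowest of the 33. Members that overlap another gene include Ifi27l2a (with Ifi27), Trex1 (with Atrip-trex1), Cxcl10 (with Art3) and Rtp4 (with Masp1). Others are B2m (with Patl2), Stat2 (with Apof) and Ifit1 (with Ifit1bl1). Reads of all these members may be shared, so the level of Ifi27l2a may be in part that of Ifi27. The width covers introns for most genes, so this scale understates genes with long introns.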

How the data were processed

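RNA of lumbar ganglia was sequenced from 6 mice, grouped by the genotype label. Alignment was to GRCm38 (mm10) with GSNAP, per the submitters' processing notes. How reads were counted, on which annotation and with which strand setting was not given in the sources used here. The authors deposited, for each library, a raw count, a width and an RPKM for every NCBI gene. The count they deposited is whole, sums to 40237131 to 63332040 per library and was the input of every test. RPKM as deposited is that count over width and a library total, and serves here only to order levels between genes. Width, another deposited column, lies within 5% of the gene's span in GRCm38.p6 for 77.7% of genes. Without a strand setting, reads of overlapping genes cannot be separated, and 13 of the 33 members overlap another gene.

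Identifiers were matched to GRCm38.p6 symbols (31049 of 36528, with 1.91% of counts in the rest). The filterByExpr defaults left 22043 genes, which were scaled with TMM factors and tested with edgeR 4.0.16 (R 4.3.3, glmQLFit with legacy = FALSE, glmQLFTest) with Benjamini-Hochberg adjustment at 0.05. The SE is the log2 fold change divided by the square root of F, and intervals are 95%. CPM are TMM-scaled. The members and all lists were chosen with earlier results of these data known. Every member is accounted for, with values by library for Sting1 and the 6 smallest p values, and in each other pathway list the 2 genes with the smallest p are given, except 1 gene that is not reported here. Others named there, and other members given by library, were chosen after their values were seen, as was the limit of printed promoter stretches to those outside exons and the gene's span. Among the listed genes, Ifi44l had no row. Pairs of libraries within a group differed beyond sampling noise (5.64 to 40.7 chi-square units per degree of freedom). Simulated counts for 22043 genes, 200 of them changed, gave 158 calls, 10 of them unchanged genes, with 63% of 1.5-fold and 85% of 2-fold changes recovered. The simulation gave no mouse a shift of its own, such as those seen in CreER-positive replicate 3, and let spread depend on expression level alone. Recovery in the real data may be lower. Alternatives were other scaling, other filters, DESeq2 1.42.0, limma-voom (limma 3.58.1), leaving out libraries and, added after seeing the data, the legacy quasi-likelihood setting. Figures were drawn with matplotlib 3.10.9.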

Additional observations from a re-analysis of the deposited data

How the results depend on the processing

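Of 462 estimates of members under 14 alternatives each, 421 kept their direction and their side of the threshold, 5 lost the call, 2 gained it and 34 changed sign, over 17 members of which none was called. Sting1 kept its direction in all 14 (adjusted p 1.07e-05 by DESeq2 to 0.104), and the 5 lost calls were its own: without each control, without CreER-positive replicate 2, and without control replicate 2 and CreER-positive replicate 3 together (0.0797). The count of called members, 1, became 2 by DESeq2, 0 without both those libraries and 0 to 2 without any 1 library. The count of called genes, 160, became 430 by DESeq2 and 60 to 568 without any 1 library. The count of other pathway genes, 0 by edgeR, became 2 by DESeq2 and 0 to 1 without any 1 library. Of the 117 of those genes that were tested, 9 reached an unadjusted edgeR p below 0.05, against 10.6% of all genes tested.

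Signs changed for Irf9 (0.0016) and Mx2 (0.030) by limma-voom and for Mx2 (0.0061) with no count filter. They changed without control replicate 2 and CreER-positive replicate 3 together for Bst2 (-0.078), B2m (-0.083), H2-D1 (-0.052) and Psmb8 (-0.011). Without any 1 library the log2 fold changes ranged as follows: Irf3 -0.064 to 0.0058, Irf7 -0.45 to 0.10, Irf9 -0.075 to 0.083, Isg15 -0.54 to 0.070, Ifit3 -0.41 to 0.048, Oasl2 -0.24 to 0.041, Usp18 -0.49 to 0.027, Bst2 -0.071 to 0.22, Mx1 -0.90 to 0.0083, Mx2 -0.14 to 0.20, Cxcl10 -0.45 to 0.26, Gbp2 -0.11 to 0.64, Gbp3 -0.25 to 0.20, B2m -0.065 to 0.37, H2-D1 -0.024 to 0.12, Psmb8 -0.0038 to 0.24 and Ifnar2 -0.11 to 0.028. The cause was not tested. No paired analysis was possible because the labels give the animals no replicate number, litter or batch. The replicate numbers used here follow the order of the samples within each group. Depth limits Cgas, with 70 to 105 counts a library, and the interferon genes, with at most 3.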
